A study of Mus musculus with 9 samples.

Results

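The chemokine receptor gene Cxcr3 and the genes of its interferon-induced ligands, Cxcl9, Cxcl10 and Cxcl11, were measured in epithelial cells of the ileum. The cells came from male NOD mice on postnatal day 23. NOD is an inbred line prone to autoimmune diabetes. These 4 genes were taken by name from a panel of 561 mouse immunology genes (547 endogenous and 14 housekeeping) counted on the nCounter platform, where molecules caught by a pair of probes are imaged without amplification. All 4 had exactly 1 probe each, and all 4 were among the 470 genes kept for testing. The 9 libraries fell into 3 groups of 3, mice labelled as controls, mice whose treatment is labelled 1PAT antibiotics, and mice given cecal material. The groups shared strain, sex, age, tissue and batch number. The series title speaks of a rescue by the transfer, while the labels of the transfer libraries do not say whether those mice had first received antibiotics. Whether each library stands for its own animal is not stated in the labels, and the p-values therefore reflect library-to-library spread, which may be technical.

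CXCR3 is a G protein-coupled receptor found mainly on activated CD8 and type 1 helper T cells, NK cells and some intraepithelial lymphocytes. Its ligands CXCL9, CXCL10 and CXCL11 are chemokines that epithelial cells, macrophages, dendritic cells and endothelium release under interferon. Interferon gamma acts through its receptor and the Janus kinases to induce all of these ligands, and CXCL10 and CXCL11 also respond to type I interferon. In the gut the axis is known for drawing effector T cells into inflamed mucosa.

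In the C57BL/6J reference annotation (RefSeq, build GRCm38.p6) the ligand genes lie side by side on chromosome 5, with no other annotated gene lying wholly between the outer ends of the row. Cxcl9 occupies chr5:92321331-92328079, Cxcl10 chr5:92346638-92348889 and Cxcl11 chr5:92359544-92363296. The row spans 41966 bp. Cxcl11 is annotated there as a transcribed pseudogene, while its panel probe was placed at base 345 of an mRNA record. Which allele the NOD mice carry was not examined here. Cxcr3 lies apart from its ligands at chrX:101731535-101734147. The probes for Cxcl9, Cxcl10 and Cxcr3 were placed at bases 40, 115 and 605 of their transcripts.

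Cxcl9 and Cxcl10 are neighbours that share an inducer. The 250 bases before each start site are printed, 5′ to 3′ on the minus strand, from the RefSeq table of build GRCm38.p6. Whether these bases bear on the levels of the 2 genes was not tested. Capitals mark matches to the 3 motifs searched on both strands.
Cxcl9, chr5:92328080-92328329: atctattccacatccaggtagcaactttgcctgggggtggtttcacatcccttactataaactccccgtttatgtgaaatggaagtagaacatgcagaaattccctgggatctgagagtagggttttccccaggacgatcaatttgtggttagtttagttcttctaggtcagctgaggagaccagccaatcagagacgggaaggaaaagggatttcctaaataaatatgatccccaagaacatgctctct
Cxcl10, chr5:92348890-92349139: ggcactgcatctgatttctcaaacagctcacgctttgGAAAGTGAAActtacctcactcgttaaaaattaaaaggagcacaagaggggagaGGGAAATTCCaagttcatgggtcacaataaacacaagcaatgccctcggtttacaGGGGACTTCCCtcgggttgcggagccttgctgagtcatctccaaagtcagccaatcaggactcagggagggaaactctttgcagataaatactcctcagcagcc
The motifs were the core of the interferon-stimulated response element (ISRE), which is GAAA, any 2 bases and GAAA again, then TTCNNNGAA, the gamma-activated site, and the NF-kB consensus. The ISRE core occurred in 2.98% of 32851 annotated mouse promoters of the same length, the gamma-activated site in 7.02% and the NF-kB consensus in 7.25%. The Cxcl10 window held 1 ISRE core, GAAAGTGAAA, from -213 to -204 relative to the start site. It also held 3 NF-kB matches, of which GGGGACTTCC and GGGACTTCCC overlap each other and GGGAAATTCC lies at -159 to -150. None of the 3 motifs was found in the Cxcl9 window or in the corresponding window of Cxcr3. A match is a description of letters only, and the lack of a match to these strict patterns does not show that a response element is absent. Promoter sequences were matched for 3 of the 4 genes, the exception being Cxcl11.

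Total counts over the 561 genes ran from 323129 to 747434 per library. The limit that negative-control probes set for a library (their mean plus 2 SD) ran from 7.74 to 17.7 counts. Control replicate 3 differed from the rest in lymphocyte transcripts. Its T cell marker score, the mean log2 CPM (counts scaled to a fixed library total) over 11 kept markers, was 7.26, while the other 8 libraries lay between 8.39 and 9.72. The epithelial label could be checked with 4 kept markers, of 6 on the panel. Pigr, the transporter of secretory antibody, had between 11211 and 48139 counts in every library, and Ccl25, the chemokine of small-intestinal epithelium, 3618 to 17573. Il18 had 226 to 1479 counts, while Defb1, with 4 to 40 counts, was above the limit in 3 of 9 libraries. Ceacam1 and Muc1, on the panel but not kept, were above it in 0 of 9. T cell transcripts were plentiful, with Cd3d at 493 to 5207 counts. In such mixed RNA, fewer cells of a type and less RNA per cell cannot be told apart.

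Cxcl9, the ligand most dependent on interferon gamma, was lower in every antibiotic library than in any control library under TMM scaling, the deposited signal and spike-in scaling, although the difference did not pass the test. The transfer libraries lay below all controls under TMM scaling and overlapped them under the others. Its raw counts were 28, 37 and 39 in the control libraries, 10, 7 and 25 in the antibiotic libraries, and 20, 22 and 17 in the transfer libraries. Scaled to CPM with TMM factors, which set libraries to a common middle of the panel, the control libraries measured 60.8, 62.1 and 75 CPM. The antibiotic libraries measured 19.3, 25.9 and 34.4 CPM, and the transfer libraries 52.0, 29.4 and 25.4 CPM. On this scale the control group stood clear of both others, and the antibiotic and transfer groups overlapped. In the deposited housekeeping-scaled signal transfer replicate 1, at 36.4, was above the control libraries, at 34.8, 28.2 and 30.4, so control did not stand clear of transfer there. The counts of antibiotic replicates 1 and 2 were below the negative-control limits of those libraries, 12.0 and 12.6 counts, so the antibiotic level of Cxcl9 is in part a background level. With the negative-control mean subtracted, the log2 fold change of antibiotic against control was -1.90 in place of the -1.29 given next.

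Cxcl9 averaged 66.0 ± 7.85 CPM in control, 26.5 ± 7.60 CPM in antibiotic and 35.6 ± 14.4 CPM in transfer libraries (SD, n = 3). For antibiotic against control its log2 fold change was -1.29 ± 0.50 (SE), with a 95% interval from -2.37 to -0.22 before adjustment and an adjusted p of 0.159 in edgeR's quasi-likelihood test. For transfer against control it was -0.91 ± 0.49 (SE, edgeR adjusted p = 0.251). These comparisons share the control libraries. For transfer against antibiotic the log2 fold change was 0.38 ± 0.51 (SE, edgeR adjusted p = 0.993), with a 95% interval from -0.71 to 1.48. At an adjusted p under 0.05, 0% of the 470 genes were called by edgeR in each of the 3 comparisons, so 0 of the 4 members is the background. At an unadjusted p under 0.05, Cxcl9 was the single member of 4 in antibiotic against control, where 7.45% of the genes were lower by that rule. In transfer against control 0 of the 4 members were lower by it, where 7.23% of genes were. Groups that did not overlap were found for 28.9% of genes in antibiotic against control (10.9% with the antibiotic libraries lower) and for 26.4% in transfer against control (10.6% with the transfer libraries lower). Cxcl9 was again the single member of 4 in each. In transfer against antibiotic 0 of the 4 members had an unadjusted p under 0.05, where 2.55% of genes did, 1.28% higher and 1.28% lower. There 0 of the 4 were free of overlap, where 3.62% of genes were higher and 3.83% lower without overlap.

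At 7 to 39 counts, counting error alone was wide for Cxcl9. The exact 95% Poisson interval was 2.81 to 14.4 counts for antibiotic replicate 2 and 27.7 to 53.3 counts for control replicate 3, covering counting error only. The SD between control libraries was 0.697 times the SD that counting gives, and that between transfer libraries 1.71 times. The spread of Cxcl9 was thus no larger than counting error in the control libraries and larger in the transfer libraries.

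Under TMM scaling Cxcl10, the ligand also known as IP-10, had nearly the same level in all 9 libraries. The control libraries measured 149.9, 181 and 146 CPM, the antibiotic libraries 131, 163 and 156 CPM, and the transfer libraries 189.9, 154 and 203 CPM. On this scale all groups overlapped, and the highest library was 1.55 times the lowest, the narrowest range of the 4 genes. The coefficient of variation over the 9 libraries was 14.1%, against 46.9% for Cxcl9, 54.4% for Cxcl11 and 53.6% for Cxcr3. Within groups the SD of Cxcl10 was between 0.885 and 1.40 times the counting SD.

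The log2 fold change of Cxcl10 was -0.09 ± 0.36 (SE) for antibiotic against control, with a 95% interval from -0.87 to 0.69. It was 0.19 ± 0.36 for transfer against control, with an interval from -0.58 to 0.97, and 0.28 ± 0.36 for transfer against antibiotic, with an interval from -0.49 to 1.06. The edgeR adjusted p-values were 0.888, 0.745 and 0.993. With 3 libraries a group, differences of Cxcl10 inside these intervals were not excluded. Its sign for antibiotic against control turned with housekeeping scaling, at 0.21.

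Cxcl11, the ligand also known as I-TAC, varied more between libraries of 1 group than between groups. The control libraries measured 82.5, 134 and 219 CPM, the antibiotic libraries 146, 55.5 and 70.2 CPM, and the transfer libraries 44.2, 137 and 61.2 CPM. Control replicate 3 was the highest of all, and 1 library in each of the other groups stood beside the middle control library. The SD within groups was 3.5 to 4.36 times what counting gives. The log2 fold change was -0.67 ± 0.56 (SE) for antibiotic against control and -0.83 ± 0.56 for transfer against control, with edgeR adjusted p-values of 0.514 and 0.35. Without control replicate 3 these values were -0.14 and -0.31. They moved the other way without antibiotic replicate 1 (-1.18 for antibiotic), without transfer replicate 2 (-1.48 for transfer) and without control replicate 1 (-0.98 and -1.14). The size of the difference thus depended on single libraries of every group. For transfer against antibiotic the value was -0.16 ± 0.56 (SE), with a 95% interval from -1.37 to 1.05.

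Cxcr3, the receptor, was highest on average in the transfer libraries and differed most within the antibiotic group. The control libraries measured 417, 248 and 113 CPM, the antibiotic libraries 558, 118 and 432 CPM, and the transfer libraries 643, 389.8 and 728 CPM. Antibiotic replicate 2, with 32 counts, lay near control replicate 3, with 59 counts, while the other antibiotic libraries lay above all control libraries. The transfer libraries overlapped the control group through transfer replicate 2 and control replicate 1. Neither comparison with control separated the groups for Cxcr3, where 18.1% of genes were higher without overlap in antibiotic and 15.7% in transfer libraries. Higher values at an unadjusted p under 0.05 were found for 14.3% and 15.1% of genes, and for 0 of the 4 members. The within-group SD was 5.33 to 8.55 times the counting SD, so counting error was a small part of it.

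Mean levels of Cxcr3 were 259.6 ± 152 CPM in control, 369.6 ± 227 CPM in antibiotic and 587 ± 176 CPM in transfer libraries (SD, n = 3). The log2 fold change was 1.18 ± 0.57 (SE) for transfer against control, with a 95% interval from -0.05 to 2.40 (edgeR adjusted p = 0.214). It was 0.91 without control replicate 3 and 1.65 without control replicate 1. For antibiotic against control it was 0.52 ± 0.56 (SE, edgeR adjusted p = 0.631), and it moved to 0.93 without antibiotic replicate 2, to 0.12 without antibiotic replicate 1, to 0.27 without control replicate 3 and to 1.00 without control replicate 1. Transfer against antibiotic gave 0.66 ± 0.56 (SE, edgeR adjusted p = 0.993), and 0.24 without antibiotic replicate 2. Single libraries of either group thus set the size of this difference.

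**Figure D1:**
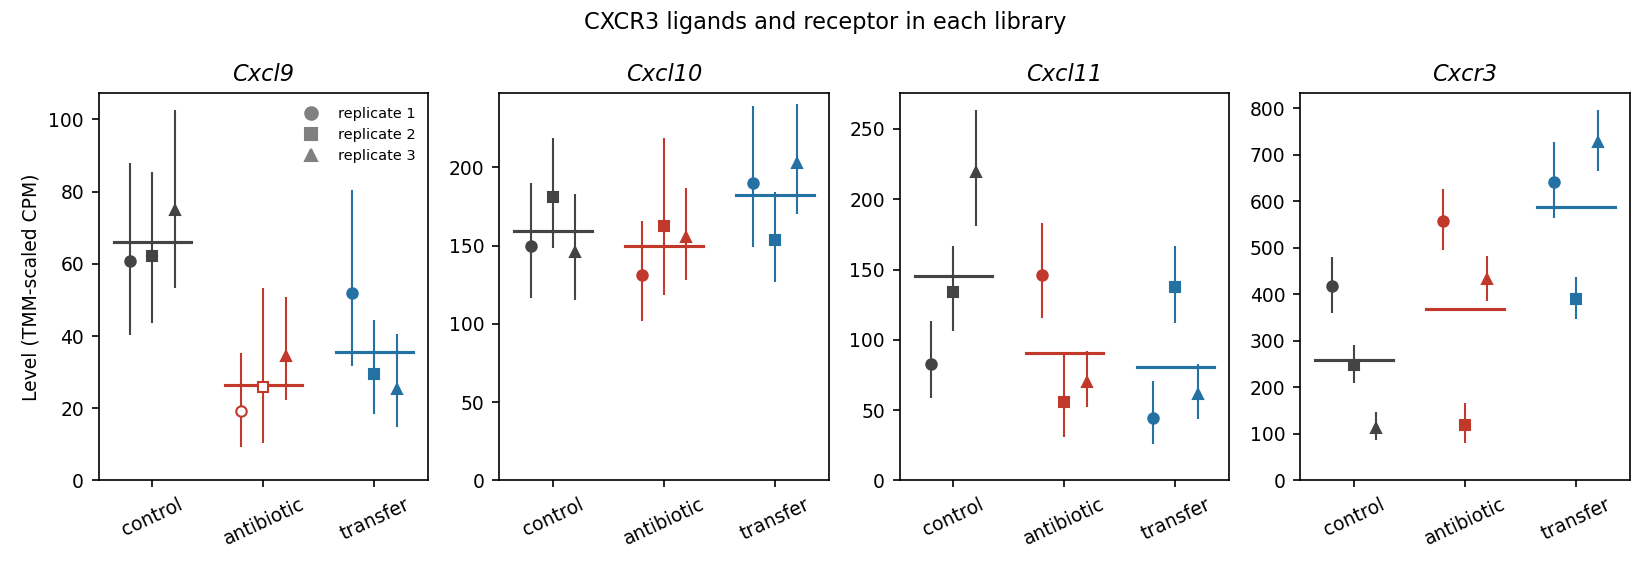
Level of each gene in every library, in TMM-scaled CPM on a linear axis from 0, with exact 95% Poisson intervals for counting error as vertical lines and the group mean as a horizontal line. Open symbols mark counts below the negative-control limit. The 3 control libraries lie above all others for Cxcl9, Cxcl10 stays between 131 and 203 CPM, and antibiotic replicate 2 is low for Cxcr3.

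Scaling affected all 4 genes together. The summed counts of the synthetic spike-ins differed 11.8 times between libraries, and scaling to them moved the median of all genes by -1.95 for antibiotic against control and by 2.05 for transfer against antibiotic (log2). Relative to that median the order of the members was the same as with TMM in antibiotic against control. Their values there were -3.05 for Cxcl9, -2.28 for Cxcl11, -2.05 for Cxcl10 and -1.58 for Cxcr3, and Cxcr3 so changed sign. In transfer against control the spike-in median moved by 0.06 only, and the members stood at -0.58, -0.59, 0.32 and 0.99 for Cxcl9, Cxcl11, Cxcl10 and Cxcr3. Geometric-mean housekeeping scaling moved the median of all genes by 0.28 in antibiotic against control and 0.38 in transfer against control, and gave Cxcl9 -0.98 and -0.49 there.

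**Figure D2:**
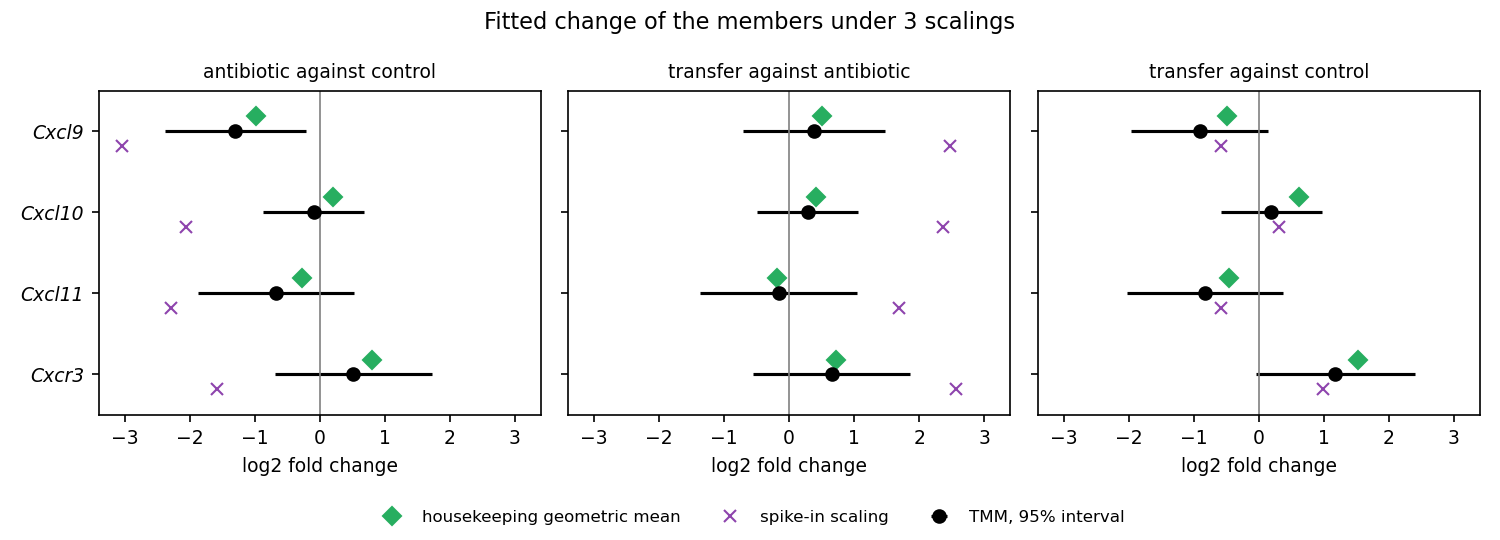
Fitted log2 fold change of each gene in the 3 comparisons, with the 95% interval from edgeR under TMM scaling (circles and lines) and the values under housekeeping geometric-mean scaling (diamonds) and spike-in scaling (crosses). The interval of Cxcl9 in antibiotic against control, from -2.37 to -0.22, is the only one of the 12 that excludes 0, before adjustment over genes.

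Ratios of raw counts within a library do not depend on its scaling, and show whether 2 genes changed unequally. The ratio of Cxcl10 to Cxcl9 counts was 2.46, 2.92 and 1.95 in the control libraries and 3.65, 5.23 and 8 in the transfer libraries. In antibiotic replicates 1 and 2, where Cxcl9 was below the negative-control limit, the ratio was at least 5.65 and at least 3.48 with Cxcl9 set at that limit, and in antibiotic replicate 3 it was 4.52. Every transfer library, and every antibiotic library at its bound, lay above every control library. On the log2 scale the ratio differed by 1.15 between transfer and control, with an exact two-sided permutation p of 0.10, the smallest that 3 against 3 libraries can give. No difference is given here for the antibiotic group, whose ratios are partly bounds.

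The ratio of receptor to Cxcl9 counts was 6.86, 4 and 1.51 in control and 12.4, 13.3 and 28.7 in transfer libraries. In the antibiotic libraries it was at least 24.1, at least 2.53 and 12.6, in the order of replicates 1 to 3. The transfer libraries lay above all control libraries, by a mean of 2.28 on the log2 scale (exact permutation p = 0.10). The ratios of the 6 pairs of members were added after the levels had been seen. With the receptor measure described next, 21 such comparisons were made. After Benjamini-Hochberg adjustment the smallest of these exact permutation p-values was 0.60. The ratios of Cxcl11 to Cxcl10 and of Cxcr3 to Cxcl11 separated no pair of groups.

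The receptor was also set against Cd3d and Cd3e, which encode chains of the T cell receptor complex and had a mean log2 CPM that varied with the number of T cell transcripts in a library. Cxcr3 lay below that mean by nearly the same amount in 8 of the 9 libraries. The difference in log2 CPM was -4.25, -4.58 and -3.97 in control, -4.31, -6.59 and -4.52 in antibiotic, and -4.25, -4.44 and -4.20 in transfer libraries. Control replicate 3, with the lowest Cxcr3 and CD3 levels, had the highest value of this difference, while antibiotic replicate 2 stood far below the rest. In that library Cd3d measured 7213 CPM and Cd3e 19186 CPM, within the range of the other antibiotic libraries or above it, while Cxcr3 measured 118 CPM. Group means differed by -0.03 between transfer and control (exact permutation p = 0.90) and by -0.88 between antibiotic and control (exact permutation p = 0.30). Without antibiotic replicate 2 the latter was -0.15. Against control, the higher mean of Cxcr3 in the transfer libraries thus came with higher CD3 transcripts. Against antibiotic, Cd3d and Cd3e had log2 fold changes of 0.05 ± 0.42 and 0.06 ± 0.44 (SE), beside 0.66 for Cxcr3. The difference between receptor and CD3 genes was higher there by 0.84 (exact permutation p = 0.20), with antibiotic replicate 2 included. The part of T cell content in the level of Cxcr3 was not tested.

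**Figure D3:**
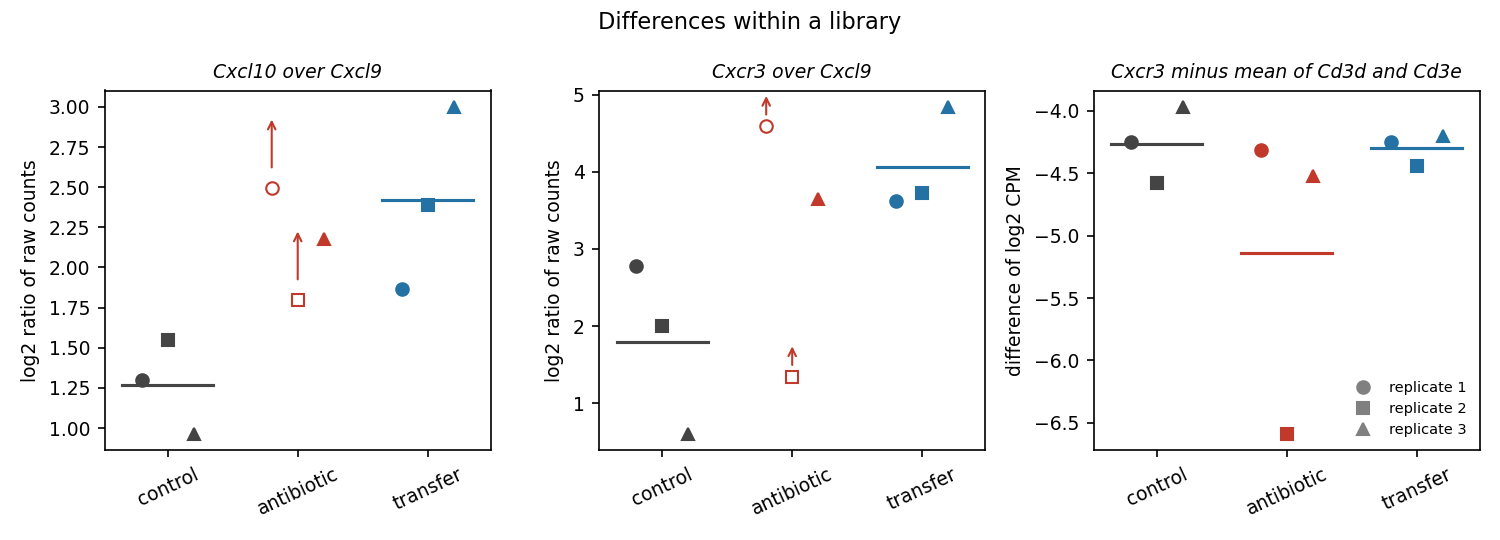
Within-library differences by group, as log2 ratios of raw counts for Cxcl10 over Cxcl9 and Cxcr3 over Cxcl9, and as the log2 CPM of Cxcr3 minus the mean of Cd3d and Cd3e. Points are libraries and lines group means. Open symbols with arrows are lower bounds, for antibiotic replicates 1 and 2 with Cxcl9 set at the negative-control limit, and no mean is drawn there. The control libraries lie lowest for Cxcl10 over Cxcl9, and antibiotic replicate 2, at -6.59, lies apart from the other 8 libraries in the right panel.

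Counts of list members above 0 are to be read beside the shares over all 470 genes, which were 50.9% in antibiotic against control, 48.7% in transfer against antibiotic and 52.8% in transfer against control. Most genes of the inducer list, which also holds the cytokine genes Il12a, Il12b and Il18, did not follow Cxcl9 under TMM scaling. Ifng, which encodes interferon gamma, measured 187, 124 and 44.2 CPM in control, 522, 425 and 344 CPM in antibiotic, and 406, 184 and 364 CPM in transfer libraries. On this TMM scale all antibiotic libraries were above all control libraries for Ifng, the opposite order to Cxcl9. Its log2 fold change was 1.86 ± 0.51 (SE) for antibiotic against control and 1.42 ± 0.51 for transfer against control, neither past the adjusted threshold in edgeR. Of the 7 inducer genes, all kept, 6 had a value above 0 in antibiotic against control, with a median of 0.48 beside 0.03 over all 470 genes, and 0 passed. Leaving out 1 library moved that median to between 0.19 (without control replicate 2) and 0.87 (without antibiotic replicate 3), with 0.28 without control replicate 3 and 0.79 without control replicate 1. It was 0.75 without transfer replicate 2 and 0.73 without antibiotic replicate 1. Ifna1, Ifnb1 and Il12b were above the negative-control limit in 3, 4 and 3 of 9 libraries, and the value of Il12b was the median of 0.48. With spike-in scaling the median was -1.50, beside -1.92 for all genes, and 0 of the 7 genes, Ifng included, was above 0. The higher Ifng in antibiotic libraries thus depended on the scaling. Il12a, a subunit of the type 1 cytokine interleukin-12, had 1.24 ± 0.59, with 5 of 9 libraries above the limit, and Tnf 0.81 ± 0.65 (log2, SE). Il18, an epithelial cytokine that promotes interferon gamma release, stood on the other side at -0.70 ± 0.50.

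The genes that carry the interferon signal from receptor to nucleus mostly had values below 0. Of 13 on the panel 12 were kept, and 8 of them were below 0 in antibiotic against control and 10 in transfer against control, with medians of -0.30 and -0.43 and 0 past the adjusted threshold in either direction. These medians shrank to -0.04 and -0.12 without control replicate 3, and to 0.01 and -0.02 with geometric-mean housekeeping scaling. Irf1, an interferon-induced transcription factor, measured 4257, 6584 and 8724 CPM in control libraries and between 3481 and 4085 CPM in antibiotic libraries, which did not overlap. Its log2 fold change was -0.82 ± 0.32 (SE) there and -0.79 ± 0.32 in transfer against control. The interferon gamma receptor chains Ifngr1 and Ifngr2 had -0.04 ± 0.30 and -0.22 ± 0.48 in antibiotic against control.

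Most other genes induced by interferon gamma lay on the side of Cxcl9. Of 8 kept, 6 were below 0 in both comparisons with control, with medians of -1.10 and -1.15, and 0 passed the adjusted threshold. Without control replicate 3 the medians were -0.62 and -0.74. Ciita, the master regulator of MHC class II genes, had -2.16 ± 0.67 and -1.98 ± 0.66, and Tap1, a subunit of the peptide transporter for MHC class I, -1.78 ± 0.53 and -1.79 ± 0.53 (log2, SE). Cd274, which encodes PD-L1, and the adhesion molecule Icam1 were the members above 0, at 0.52 ± 0.37 and 0.60 ± 0.63 in antibiotic against control. In transfer against control they had 0.50 ± 0.37 and 0.74 ± 0.63 (log2, SE). There the transfer libraries lay above all control libraries for these 2 genes and below them for 5 others of the list. The shares over all genes were 15.7% and 10.6%. The values in transfer against antibiotic had a median of -0.01.

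Transcripts of lymphocytes that can carry CXCR3 lay on the side of the receptor. Of 17 kept genes, 14 were above 0 in antibiotic against control and 17 in transfer against control, with medians of 0.80 and 1.01 and 0 past the adjusted threshold. With spike-in scaling the medians were -1.48 and 0.85, and without control replicate 3 they were 0.56 and 0.77. Cxcr6, a receptor of tissue-resident T cells, had 0.80 ± 0.44 and 1.11 ± 0.44, and Ccl5, a chemokine stored by cytotoxic T cells, 1.07 ± 0.39 and 1.05 ± 0.39 (log2, SE). Most B cell markers lay on the same side, though B cells were not in this list. Of their 5 kept genes 4 were above 0 in each comparison with control, with medians of 0.97 and 1.44. Cd79a was below 0, at -0.41 ± 0.61 and -0.13 ± 0.60 (log2, SE). The 5 genes had a summed level of 781 to 3842 CPM in control, 4820 to 7139 CPM in antibiotic and 4197 to 8034 CPM in transfer libraries. Ms4a1 and Cd79b were the largest parts of that sum. Ms4a1, which encodes CD20, had 1.99 ± 0.47 and 1.76 ± 0.46 (log2, SE). With spike-in scaling the B cell medians were -1.10 and 1.17. Tbx21, whose product T-bet drives Cxcr3 in type 1 T cells, had 1 to 7 counts and was above the limit in 0 of 9 libraries, so no comparison could be made. Among other CXC chemokines and receptors, 7 were kept and all 7 were above 0 in antibiotic against control, with a median of 1.20 under TMM and -0.61 with spike-in scaling. In transfer against control 5 were above 0, with a median of 0.89, and in transfer against antibiotic 5 were below 0, with a median of -0.64. Cxcl13, a B cell chemokine, had 1.67 ± 0.70 in antibiotic against control and -1.76 ± 0.70 in transfer against antibiotic (log2, SE). Cxcl13, Cxcr1 and Cxcr2 were above the limit in 4, 4 and 3 of 9 libraries. Cxcl1, an epithelial neutrophil chemokine, had the smallest value in antibiotic against control, at 0.20 ± 0.43.

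**Figure D4:**
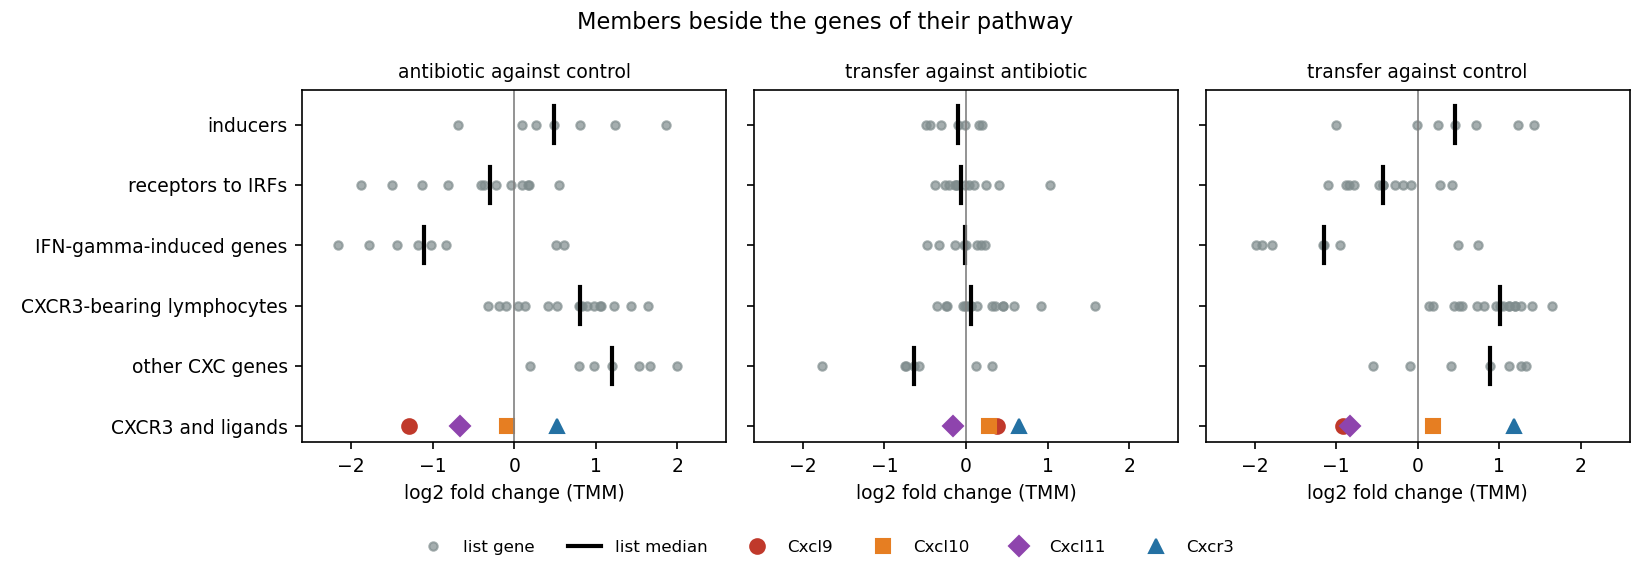
Fitted log2 fold changes (TMM) of the kept genes in 5 lists, one grey point a gene and a bar at the list median, above the values of the 4 members. In both comparisons with control Cxcl9 lies among the other interferon gamma induced genes, with medians of -1.10 and -1.15, and Cxcr3 among the lymphocyte genes, with medians of 0.80 and 1.01. In transfer against antibiotic these list medians are -0.01 and 0.06, while Cxcr3 stands at 0.66.

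Markers of macrophages and dendritic cells, which can release Cxcl9, were low in count except for Itgam and Itgax, which were above the limit in all 9 libraries. Of 8 macrophage and dendritic cell markers on the panel 7 were kept, and their summed level was 563 to 668 CPM in control, 411 to 545 CPM in antibiotic and 397 to 513 CPM in transfer libraries. Itgam was the largest part of that sum, with means of 390, 274 and 198 CPM in control, antibiotic and transfer libraries. Its log2 fold change was -0.51 ± 0.39 in antibiotic against control and -0.98 ± 0.39 in transfer against control (SE). Csf1r, the growth factor receptor of macrophages, exceeded the negative-control limit in 3 control libraries, 1 antibiotic and 1 transfer library. C1qa, a complement chain made by macrophages, exceeded it in 3, 0 and 1, and its partner C1qb in 1, 1 and 1. Batf3, a dendritic cell transcription factor, exceeded it in 2, 1 and 2, and Emr1, which encodes the macrophage antigen F4/80, in 1, 1 and 2. In antibiotic against control 5 of the 7 were below 0, from -1.26 for Csf1r, and Emr1 and Itgax stood at 1.00 ± 0.83 and 0.38 ± 0.58 (log2, SE). The list had a median log2 fold change of -0.33 in antibiotic against control and -0.14 in transfer against control, and 0 members passed. The part of these cells in the level of Cxcl9 was not tested. Of 3 endothelial and stromal markers on the panel 2 were kept, with a summed level of 233 to 493 CPM in control, 422 to 708 CPM in antibiotic and 525 to 791 CPM in transfer libraries. These 2 genes differed in sign. Pecam1 had 0.57 ± 0.45 in antibiotic and 1.02 ± 0.45 in transfer against control, and Pdgfrb -0.28 ± 0.44 and -0.34 ± 0.44 (log2, SE).

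The summed levels of the epithelial markers overlapped between all groups. The summed level of the 4 kept was 59043 to 99366 CPM in control, 66840 to 96795 CPM in antibiotic and 39192 to 89204 CPM in transfer libraries. All 4 were below 0 in both transfer comparisons, with medians of -0.42 against control and -0.52 against antibiotic and 0 past the adjusted threshold. The part of epithelial content in the level of Cxcr3 was not tested. The 11 kept T cell markers summed to 12281 to 52460 CPM in control, 59858 to 66274 CPM in antibiotic and 52855 to 93583 CPM in transfer libraries. Control replicate 3 held the lowest T cell sum and the highest level of Cxcl9 and of Cxcl11. Without it, Cxcl9 still had a log2 fold change of -1.09 in antibiotic against control and -0.71 in transfer against control.

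Across the 9 libraries the 4 genes did not move as a block. Pearson's r of log2 CPM was 0.12 between Cxcl9 and Cxcl10, 0.23 between Cxcl9 and Cxcl11, and -0.60 between Cxcl10 and Cxcl11. Between the receptor and its ligands it was -0.34 for Cxcl9, 0.27 for Cxcl10 and -0.38 for Cxcl11. These are descriptions over libraries that share scaling and in which control replicate 3 stands apart. Without that library the values for the receptor were -0.04, 0.14 and -0.03. Those between ligands were then 0.32 for Cxcl9 and Cxcl10, -0.12 for Cxcl9 and Cxcl11, where the sign turned, and -0.56 for Cxcl10 and Cxcl11.

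Each gene had its closest partners elsewhere on the panel. The genes most like Cxcl9 over the 9 libraries were Pml, an interferon-inducible nuclear body protein (r = 0.90), H2-Ab1, an MHC class II chain (0.86), the co-chaperone gene Fkbp5 (0.82), the complement gene C3 (0.81) and the kinase gene Mapkapk2 (0.80). Cxcl10 was closest to Pou2f2, a B cell transcription factor (0.90), then Kir3dl1 (0.74), Ikzf3 (0.74), Il6ra (0.71) and Ccr4 (0.71). Cxcl11 was closest to Tnfsf13b, which encodes the B cell factor BAFF (0.90), Tbk1, a kinase upstream of type I interferon (0.89), Mx1, an interferon-induced antiviral gene (0.88), Itgb1 (0.87) and Adal (0.87). Cxcr3 was closest to Il1rl1, the interleukin-33 receptor (0.90), the endothelial and leukocyte adhesion gene Pecam1 (0.90), Pdcd1, which encodes PD-1 (0.89), the co-stimulatory receptor gene Tnfrsf9 (0.88) and Gata3, a T cell transcription factor (0.87). With control replicate 3 left out, r for these 20 genes lay between 0.69 and 0.93. They were picked by r over these same libraries out of 456 kept endogenous genes, so high values were largely set by that choice.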

How the data were processed

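The deposited library files held raw whole-number counts per probe, with the class of each probe given per the file headers (8 negative and 6 positive control probes beside the genes). A deposited table held a normalised signal, which equalled each library's counts multiplied by a constant, namely 7047 divided by the library's mean housekeeping count. No label or header records this step, and the counting software is not given in the sources used here.

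Genes stayed in the test if 3 or more of the 9 libraries had counts above the limit set by negative controls (mean + 2 SD). The 470 kept genes were fitted together in edgeR 4.0.16 (R 4.3.3) with TMM factors, the quasi-likelihood test, all 9 libraries, no covariates and Benjamini-Hochberg adjustment over the 470 genes at 0.05. The biological coefficient of variation was 41.7%. The procedure was tested on simulated data. Log2 CPM used a prior count of 2. Within-group pairs of libraries differed beyond counting noise (chi-square per degree of freedom of at least 6.75), so none was taken as a repeat count of another. The lowest value was between transfer replicates 1 and 3. Such a difference cannot exclude separate preparations from 1 animal.

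Members and lists were chosen with earlier results of these data known. The text names the members, their 5 closest genes by Pearson's r, and members of the pathway lists. Alternatives were other tools (DESeq2 1.42.0, limma 3.58.1), scalings, filters, background subtraction, a replicate block, the deposited signal and leaving out each library. The within-library ratios and arithmetic housekeeping scaling were added after the data were seen. Promoter windows came from RefSeq tables of GRCm38.p6. One gene of the signal chain list is not reported singly here.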

Additional observations from a re-analysis of the deposited data

How the results depend on the processing

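For Cxcl9, Cxcl11 and Cxcr3 against control and for Cxcl9, Cxcl10 and Cxcr3 in transfer against antibiotic, every alternative kept the sign of the TMM value, except that spike-in scaling gave Cxcr3 -1.58 in antibiotic against control. Cxcl10 also kept its sign in transfer against control. In no alternative did a member pass an adjusted p under 0.05. The smallest adjusted p of Cxcl9 in antibiotic against control was 0.0728, and its log2 fold change ran from -3.05 to -0.98. Requiring counts above the limit in all 9 libraries removed Cxcl9. In antibiotic against control, Cxcl10 turned to 0.21 with the geometric and 0.14 with the arithmetic housekeeping mean, 0.15 with the deposited signal and 0.0058 in a fit of only the 2 groups, and ran from -0.19 to 0.039 with single libraries left out. Cxcl11 in transfer against antibiotic turned to 1.69 with spike-in scaling and ran from -0.78 to 0.37 with single libraries left out (above 0 without antibiotic replicate 1, transfer replicate 1 or transfer replicate 3). The cause was not tested.

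Counts of genes called in antibiotic against control were 0 with edgeR, 51 with DESeq2, 5 with limma-voom, 12 with upper-quartile factors and 2 with spike-in scaling, and 0 to 14 with single libraries left out (14 without control replicate 1, 10 without control replicate 3). In transfer against control they were 0 with edgeR, 40 with DESeq2 and 0 to 1 with single libraries left out. Same-numbered libraries had correlated deviations between -0.49 and 0.34 in 9 pairs, so the numbers were not taken to pair them; with the replicate block Cxcl9 had -1.31 in antibiotic against control, and the count stayed at 0 in each comparison.

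The receptor relative to CD3 genes in transfer against control, -0.03, was 0.076 with all T cell markers and -0.19 to 0.11 with single libraries left out. Ratios over Cxcl9 that involve antibiotic libraries divide by counts below the limit in replicates 1 and 2. They are given as computed, and their sizes and signs cannot be read beyond the bounds given above. The ratio of Cxcl10 to Cxcl9 in transfer against antibiotic, -0.11, was 0.062 with a pseudocount of 5 and -0.40 to 0.16 with single libraries left out. Other ratios whose sign turned then were Cxcl11 to Cxcl9 (-1.17 to 0.064 in transfer against antibiotic, -0.52 to 0.72 in transfer against control), Cxcr3 to Cxcl9 (-0.19 to 1.14), Cxcl11 to Cxcl10 (-1.07 to 0.020) and Cxcr3 to Cxcl10 (-0.13 to 1.14) in transfer against antibiotic, and Cxcr3 to Cxcl10 in antibiotic against control (-0.014 to 1.26).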
